A study of Rattus norvegicus with 4 samples.

Results

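The SoxC, SoxD and SoxE factors are 9 transcription factors of the Sry-related HMG box family: Sox4, Sox11 and Sox12 (SoxC), Sox5, Sox6 and Sox13 (SoxD), and Sox8, Sox9 and Sox10 (SoxE). They were chosen by name, with earlier results of these data known. The rows of the deposited peak list whose gene name is a member were taken. All 9 are named there, among 10647 genes in all, by 473 of 129550 peaks (0.365%). The list holds peaks of trimethylated histone H3 lysine 27 (H3K27me3) from male Sprague Dawley rats (sciatic nerve, postnatal day 42). The nerve was the sham side, opened at the skin but left uncut, taken 1 day after the opposite sciatic nerve was transected. There were 2 H3K27me3 libraries and 2 input libraries, all 4 from that sham tissue, and the list gives the H3K27me3 libraries combined. A peak therefore has a single value with no replicate error, and no difference between genes could be tested against the spread between animals.

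Polycomb repressive complex 2 places H3K27me3, and broad domains of the mark lie over developmental genes that a cell keeps silent. Sox proteins bind DNA through the HMG box. SoxE proteins activate lineage genes, SoxD proteins lack an activation domain of their own and help or oppose SoxE proteins, and SoxC proteins act in progenitors and immature neurons. Sox10 is needed to make Schwann cells and to keep them myelinating, Sox9 acts in neural crest and cartilage, and Sox8 resembles both. The nerve also holds fibroblasts, perineurial, endothelial and immune cells, so a peak may come from any share of the cells, and a mark in few cells and a weak mark in many cannot be told apart.

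A promoter peak means here that some peak of the gene came within 1000 bp of its transcription start site (TSS). Of the 9 factors, 7 had such a peak (Sox11, Sox12, Sox5, Sox6, Sox8, Sox9 and Sox10), and Sox4 and Sox13 had none. Among 23148 background genes the share was 17.2%. That background holds genes that the list never names, whereas all 9 factors are named, so a narrower one was set beside it. Of 9412 start sites whose position could be rebuilt from the deposited distances, 42.5% had a peak of any gene within 1000 bp, against the same 7 of 9 factors. Only transcripts with more than a single peak could be rebuilt. Promoter peaks in the top 25% of scores (9.9 or more) were found at 5 of the 9 (Sox11, Sox5, Sox6, Sox8 and Sox9) against 12.6% of background genes. A peak contained the TSS itself at 3 of the 9 (Sox11, Sox5 and Sox6) against 6.15%. The 12.6% and 6.15% are shares of the wider background, with no narrower one set beside them.

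Each peak has a score deposited by the authors. Scores below 10 were whole multiples of a step of 0.206 within a rounding tolerance of 0.005, and the 95% counting intervals given here assume that 1 step is 1 read. They cover counting error alone. By highest promoter peak score the factors fell into a steep order. Sox11 had 344.7 (328 to 362), Sox9 had 105.8 (96.9 to 115) and Sox5 had 97.8 (89.2 to 107), and the last 2 intervals overlapped. Sox8 followed with 34.7 (29.6 to 40.3) and Sox6 with 12.8 (9.80 to 16.4). Sox10 had 4.13 (2.52 to 6.37) and Sox12 had 2.89 (1.58 to 4.85), whose intervals overlapped too. The median over the 3977 background genes with a promoter peak was 40.8, so Sox11, Sox9 and Sox5 lay above it and Sox8, Sox6, Sox10 and Sox12 below. In rank among those 3977 genes Sox11 stood at 304, Sox9 at 1138, Sox5 at 1213, Sox8 at 2134, Sox6 at 2759, Sox10 at 3447 and Sox12 at 3895. The widths of these peaks differed too, from 6052 bp at Sox11 to 150 bp at Sox10 and Sox12, and the order per kb was another. Per kb the same peaks had 68.7 score units at Sox9, 57.0 at Sox11, 41.1 at Sox8 and 33.8 at Sox5. Sox10 had 27.5, Sox6 21.9 and Sox12 19.3, and at Sox10 and Sox12 these rest on 20 and 14 steps of the score. The place of Sox10 depends on the reach. With a reach of 5000 bp its highest score was 25.2 (20.9 to 30.0), above Sox6 (12.8). It then stayed below Sox8 (34.7, 29.6 to 40.3), though the intervals overlapped.

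**Figure D1:**
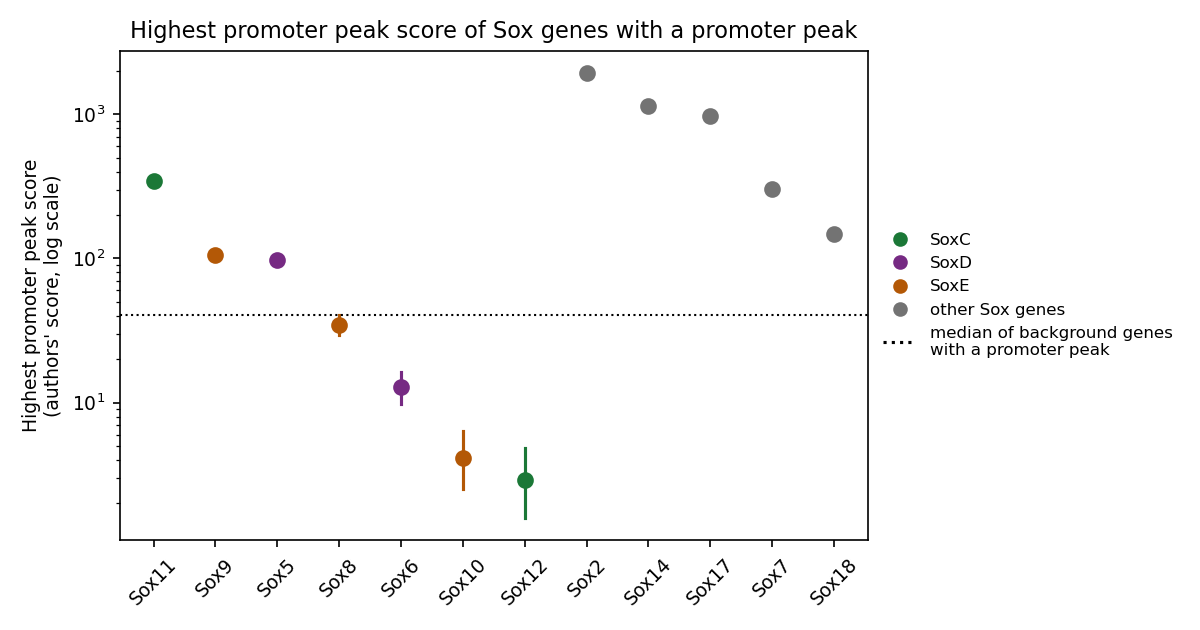
Highest promoter peak score (authors' score, log scale) of the 7 SoxC, SoxD and SoxE factors with a promoter peak and of 5 other Sox genes, with 95% counting intervals for the 7 and a dotted line at 40.8, the median of background genes with a promoter peak. Sox4 and Sox13 have no promoter peak and are not drawn. Sox10 and Sox12 lie lowest, and all 5 other Sox genes lie above the dotted line.

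Scores and widths of the peaks at the start differed within each of the 3 groups. In SoxC, Sox11 had a broad domain, Sox12 a minimal peak and Sox4 none at its start. In SoxD, Sox5 was marked across its TSS, Sox6 weakly so at its annotated TSS and Sox13 not within 10 kb of its start. The Sox6 reading holds for that annotated TSS alone, since in GRCr8 the gene extends 103872 bp upstream of the start read there. In SoxE, all 3 genes had a promoter peak, from 105.8 at Sox9 to 4.13 at Sox10.

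Sox10, the Schwann lineage factor, carried a patchwork of small peaks inside the gene. Its TSS was rebuilt at position 120397340 of chromosome 7 (rn5), with transcription running towards lower coordinates. The list gives Sox10 9 peaks with a summed score of 72.45, covering 3303 bp. The only promoter peak (chr7:120396840-120396990, 150 bp, score 4.13) lay in intron 1, from 350 to 500 bp downstream of the TSS. The highest peak (chr7:120395085-120396165, 1080 bp) was centred in exon 3 of 5, 1715 bp downstream, with a score of 25.2 (20.9 to 30.0). The next (chr7:120391648-120392603, 955 bp, score 19.0) was centred in intron 3. These were the only 2 Sox10 peaks in the top 25% of scores. Another 3 peaks in introns 3 and 4 scored between 3.09 and 4.95, and 3 intergenic peaks 17347 to 23162 bp upstream scored between 2.89 and 5.36. No peak lay in the first 10 kb upstream of Sox10, whereas 2756 bp were covered in the 10 kb downstream. Of the summed score of Sox10, 84.3% was centred within 10 kb of the TSS and the rest within 100 kb.

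The Sox10 gene body was not free of the mark. Its window of 10 kb on each side of the TSS was 13.8% covered, at percentile 68.1 of the 9412 rebuilt start sites, whose median was 1080.5 bp (quartiles 150 and 3751.5 bp). Those start sites belong to transcripts that more than a single peak names, and 23.7% of them had no peak in the window. Within 50 kb on each side Sox10 stood lower, at percentile 44.9. The signal was sparse for its length. The exon 3 peak had 23.3 score units per kb, at percentile 15.5 of the 14073 peaks of 1000 bp or more, whose median was 30.0.

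Sox9, a paralogue of Sox10 that drives cartilage and neural crest fates, was flanked by marked regions on both sides. Upstream lay peaks of 1539 bp (chr10:100962531-100964070, score 105.8) and 2466 bp (chr10:100959837-100962303, score 68.7). Downstream, a peak of 3350 bp over the last exon (chr10:100966214-100969564) scored 122.3. The upstream 1539 bp peak had the highest density of any peak of 1000 bp or more at the 9 factors, 68.7 score units per kb (percentile 98.2). Close to the TSS the signal was low. A 150 bp peak of score 2.89 ended 26 bp upstream, a 602 bp peak of score 12 began 197 bp downstream in exon 1, and no peak contained the start. In the window of 10 kb on each side 10235 bp were covered, 6077 bp upstream and 4158 bp downstream (percentile 94.1).

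Sox9 also had marked sites far away, in the large intergenic region around it that is known for distant enhancers. Its 118 peaks ran from 890409 bp upstream to 200283 bp downstream, with 40.6% of the summed score of 1420.22 over 100 kb from the TSS. The highest Sox9 peak of all was downstream (chr10:100994565-100999529, 4964 bp, score 183.6, centred 32223 bp away). Another of 2213 bp and score 73.8 was centred 684689 bp upstream.

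Sox8, the SoxE member found with Sox10 in neural crest and glia, lay between Sox9 and Sox10 in promoter score. Its promoter peak (chr10:14749253-14750098, 845 bp, score 34.7) was centred in intron 1 and began 772 bp downstream of the TSS. A 150 bp peak of score 3.09 ended 65 bp upstream. Its highest peak lay beyond the gene (chr10:14731097-14733296, 2199 bp, score 62.7, 18674 bp downstream). Within 10 kb on each side 1594 bp were covered (percentile 57.1), less than at Sox10. The order of Sox8 and Sox10 thus differed between promoter score and covered bases.

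**Figure D2:**
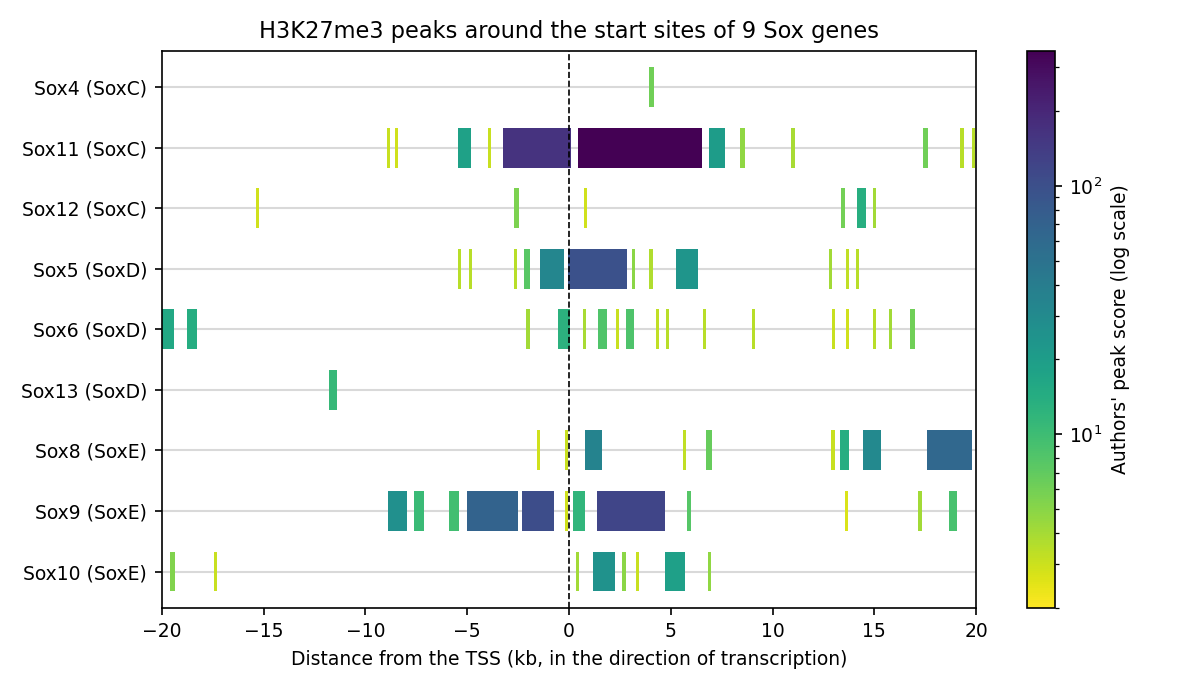
Peaks of any assigned gene within 20 kb of the TSS of the 9 factors, drawn to scale in the direction of transcription and coloured by the authors' score on a log scale. Sox11, Sox9 and Sox5 carry broad, high-scoring peaks around the start. Within 10 kb of the start, Sox10 has small peaks and Sox4 has 1 small peak on the downstream side alone, and Sox13 has none.

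Among the SoxC genes, Sox11, which acts in immature neurons and other progenitors, had the broadest domain at a start site. Its TSS lies at 55345088 of chromosome 6 and transcription runs towards lower coordinates. A peak of 3349 bp (chr6:55344966-55348315, score 163.4, 152 to 175) covered the TSS and the upstream side. A second of 6052 bp (chr6:55338578-55344630, score 344.7) was centred in a CpG island of the authors' annotation. A gap with no peak, from 122 to 458 bp downstream of the TSS, separated them. Both were dense, with 48.8 and 57.0 score units per kb (percentiles 91.6 and 95.8). Within 10 kb on each side 11531 bp were covered (percentile 95.4), the most of the 9 factors, and 69.7% of the summed score of 803.89 lay within 10 kb.

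Sox4, a close relative of Sox11, differed from it at the start site. The nearest peak of Sox4 was 239 bp wide with a score of 6.19, centred in its 3' UTR 4034 bp downstream, and it was the only peak of any gene within 50 kb (percentile 7.51 by bases covered). The marked sites lay farther out. A peak of 2756 bp and score 81.3 (73.4 to 89.7) was centred 85023 bp upstream, and a peak of 2028 bp and score 51.2 was centred 74084 bp downstream. Farther out, a peak of 2056 bp and score 56.9 was centred 248974 bp upstream. The stretch around its TSS without a peak in the top 25% of scores reached from 83645 bp upstream to 71556 bp downstream.

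Sox12, a SoxC gene expressed widely in embryos, had 2 peaks. They scored 2.89, in its single exon, and 5.57, centred 2592 bp upstream, and neither lay in the top 25%. Within 50 kb of its TSS other peaks were assigned to neighbouring genes, up to a score of 55.9.

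Among the SoxD genes, Sox5, a partner of Sox9 in cartilage and of Sox6 in glial precursors, was marked across its annotated TSS at 242641501 of chromosome 4. A peak of 2890 bp (chr4:242638634-242641524, score 97.8) began 23 bp upstream of the TSS and ran into intron 1. A peak of 1180 bp and score 32.4 lay just upstream, and a peak of 1083 bp and score 23.5 was centred 5777 bp into intron 1. Within 10 kb on each side 6267 bp were covered (percentile 86.2). Sox5 also had a distant pair of peaks 489268 and 491292 bp downstream, with scores of 55.7 and 48.7.

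Sox6, which restrains maturation of precursors in several lineages, had the most peaks of the 9 factors, 237, with a summed score of 2221.99. Only 2.45% of that score lay within 10 kb of the annotated TSS at 192644288 of chromosome 1. The promoter peak there was 584 bp wide with a score of 12.8. The highest peak of all 9 factors was centred 50197 bp upstream (chr1:192589284-192598898, 9614 bp, score 539.8, 519 to 561). With 3 further Sox6 peaks between there and 36885 bp upstream, which scored 113.0, 71.6 and 56.9, it held 35.2% of the Sox6 score. These 4 peaks were singled out after their values were seen. The 71.6 peak was centred in a CpG island. The peak next to them on the far side, of score 99.0, was assigned to RGD1311703, a gene outside the naming rule. Sox6 and Sox11 were the only factors nearest to a peak of 5000 bp or more, 2 of 9, against 3.95% of background genes. That background includes genes that no peak names.

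Sox13, which acts in T cells and other tissues, had the least mark near its start. Its 3 peaks scored 11.1, 3.51 and 3.30, and the nearest was centred 11604 bp upstream. No peak of any gene lay within 10 kb of its TSS.

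**Figure D3:**
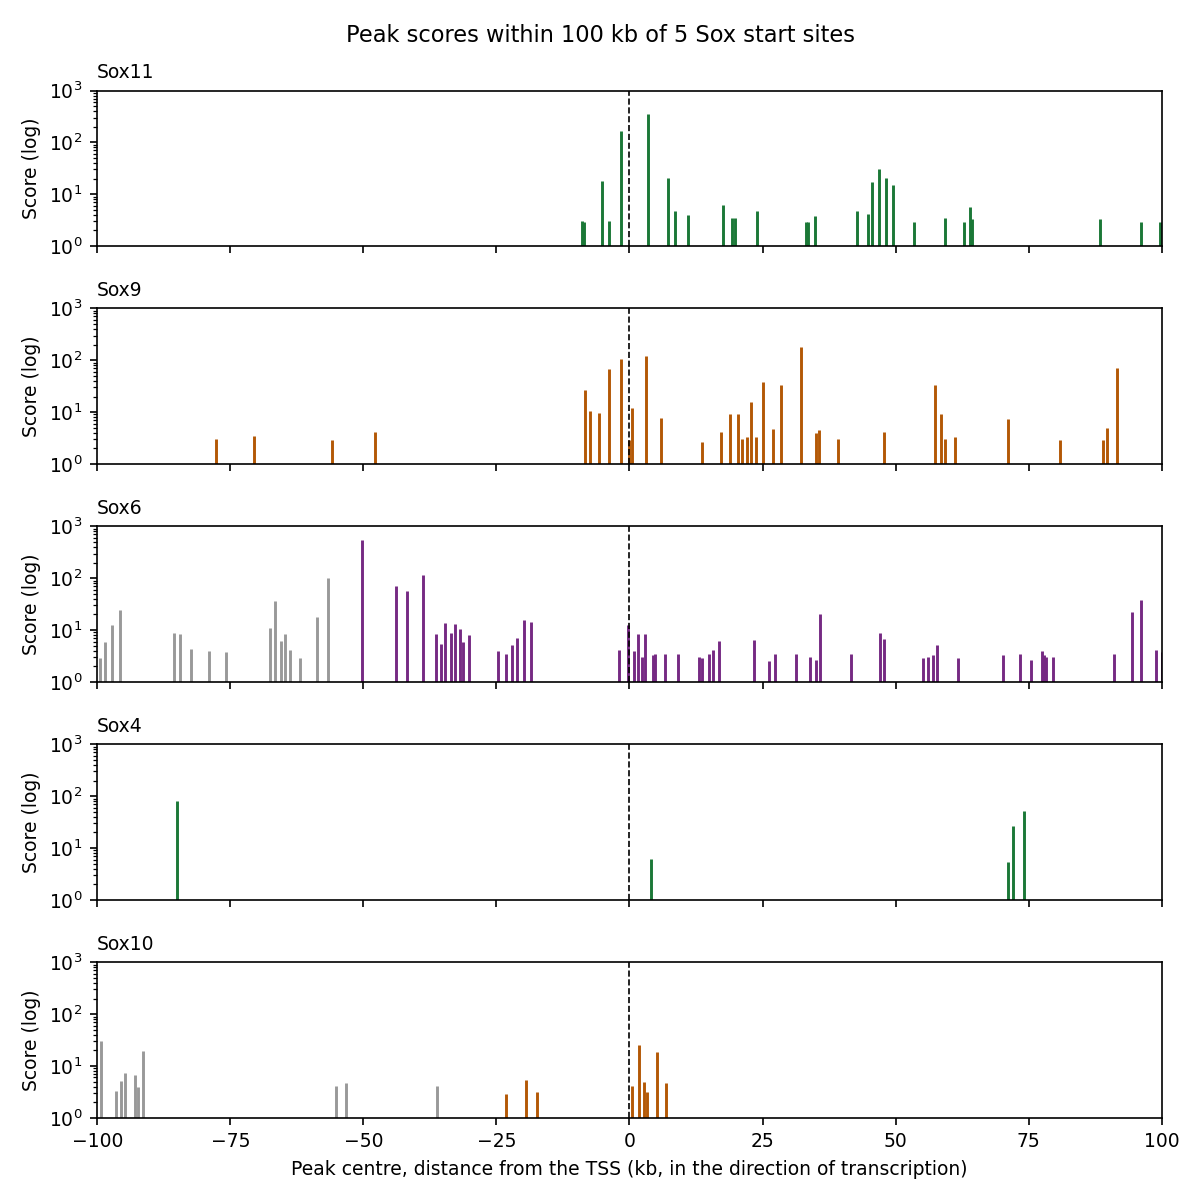
Authors' peak score (log scale) against the distance of the peak's centre from the TSS, within 100 kb, for Sox11, Sox9, Sox6, Sox4 and Sox10, with peaks assigned to the gene in colour and peaks assigned to other genes in grey. The highest peak lies 3484 bp downstream at Sox11, 32223 bp downstream at Sox9, 50197 bp upstream at Sox6 and 85023 bp upstream at Sox4, and no Sox10 peak passes 25.2.

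Promoter sequences were read for their CpG dinucleotides, since Polycomb domains often begin at CpG islands. RefSeq's table (assembly GRCr8) gave promoters for 4 of the 9 factors, Sox6, Sox11, Sox12 and Sox13. The 250 bases before the start are printed for 3 genes. They are the gene with the broadest promoter domain, the gene whose domain lies far upstream of its annotated TSS and the gene without a nearby peak. The bases are read 5′ to 3′ on the minus strand, with each CG in capitals, and lie at chr6:49738795-49739044, chr1:179665372-179665621 and chr13:47427573-47427822. These positions are of GRCr8 and do not correspond to the rn5 positions above.
Sox11: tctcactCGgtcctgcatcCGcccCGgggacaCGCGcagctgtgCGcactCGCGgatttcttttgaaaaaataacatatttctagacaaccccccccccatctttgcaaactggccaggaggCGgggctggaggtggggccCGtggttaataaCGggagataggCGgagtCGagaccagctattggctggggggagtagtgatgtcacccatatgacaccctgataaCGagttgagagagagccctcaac
Sox6: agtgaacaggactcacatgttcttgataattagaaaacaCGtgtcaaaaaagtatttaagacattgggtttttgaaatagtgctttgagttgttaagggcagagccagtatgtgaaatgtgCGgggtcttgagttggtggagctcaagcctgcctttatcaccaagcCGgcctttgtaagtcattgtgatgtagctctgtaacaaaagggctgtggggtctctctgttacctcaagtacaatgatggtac
Sox13: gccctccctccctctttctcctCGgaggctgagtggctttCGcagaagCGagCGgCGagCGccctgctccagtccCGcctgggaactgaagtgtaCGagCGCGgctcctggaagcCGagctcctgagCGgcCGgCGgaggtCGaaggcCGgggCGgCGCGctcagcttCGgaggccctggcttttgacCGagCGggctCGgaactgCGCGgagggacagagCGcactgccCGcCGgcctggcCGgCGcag

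The Sox11 stretch held 14 CG and the unmarked Sox13 stretch 30, against a median of 5 over 33469 promoters of the same length. The Sox6 stretch held 3. As many CG or more were found in 27.6% of those promoters for Sox11, 71.4% for Sox6 and 5.35% for Sox13. Sox12, with minimal peaks, held 46, a count that 0.308% of promoters reach. Its gene model is a single stretch of 1020 bp, so its annotated start may not be its TSS, and its sequence is not shown. The Sox11 model is 2022 bp long, and whether its annotated start is its TSS was not tested. In GRCr8 the Sox6 gene extends 103872 bp upstream of the start printed here. Whether the domain 36885 to 55004 bp upstream on rn5 lies at another Sox6 start was not tested.

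The spread of the score by distance also separated the factors. The share within 10 kb was 100% at Sox12, 84.3% at Sox10, 69.7% at Sox11 and 50.9% at Sox5. It was 29.3% at Sox8, 25.8% at Sox9, 2.45% at Sox6, 2.30% at Sox4 and 0 at Sox13. A peak goes to the gene with the nearest TSS, so genes in gene-poor regions collect distant peaks. The count of peaks and the far share depend on that spacing.

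**Figure D4:**
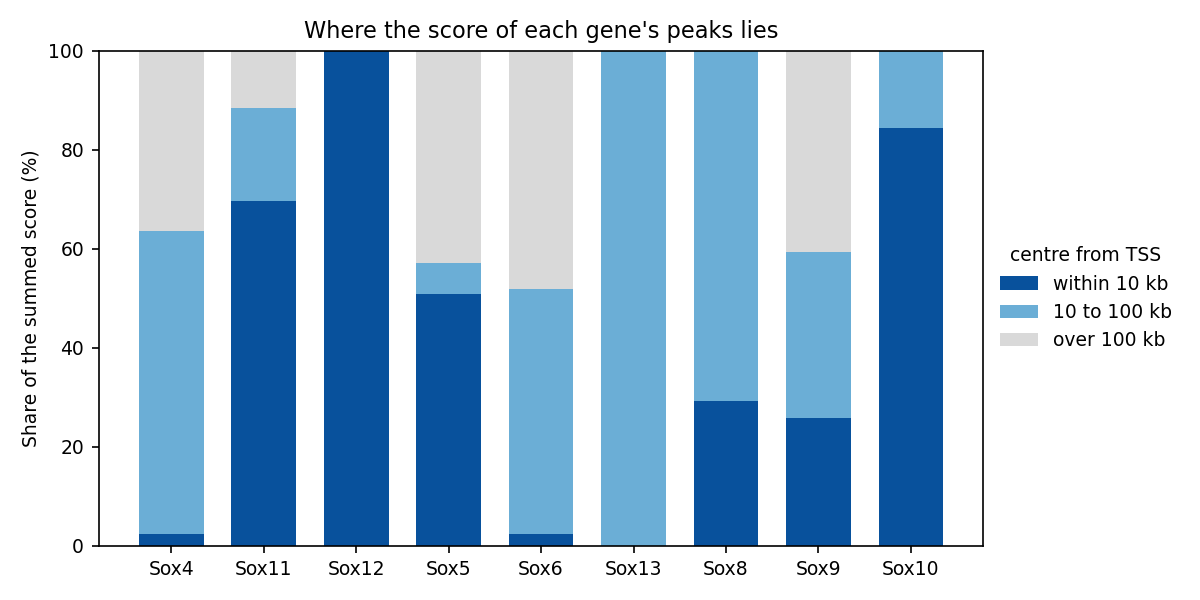
Share (%) of the summed score of each factor's peaks by the distance of the peak's centre from the TSS, within 10 kb, 10 to 100 kb and over 100 kb. Sox12 (2 peaks), Sox10, Sox11 and, at 50.9%, Sox5 have most of their score within 10 kb, and Sox4, Sox6 and Sox13 have nearly none there.

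Within the windows of 10 kb on each side, the 9 factors had a median of 2501 bp covered against 1080.5 bp over all rebuilt start sites. Of the 9, 6 lay above that median and 3 (Sox11, Sox9 and Sox5) above the upper quartile. Within 50 kb the medians were 5807 and 4242.5 bp.

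**Figure D5:**
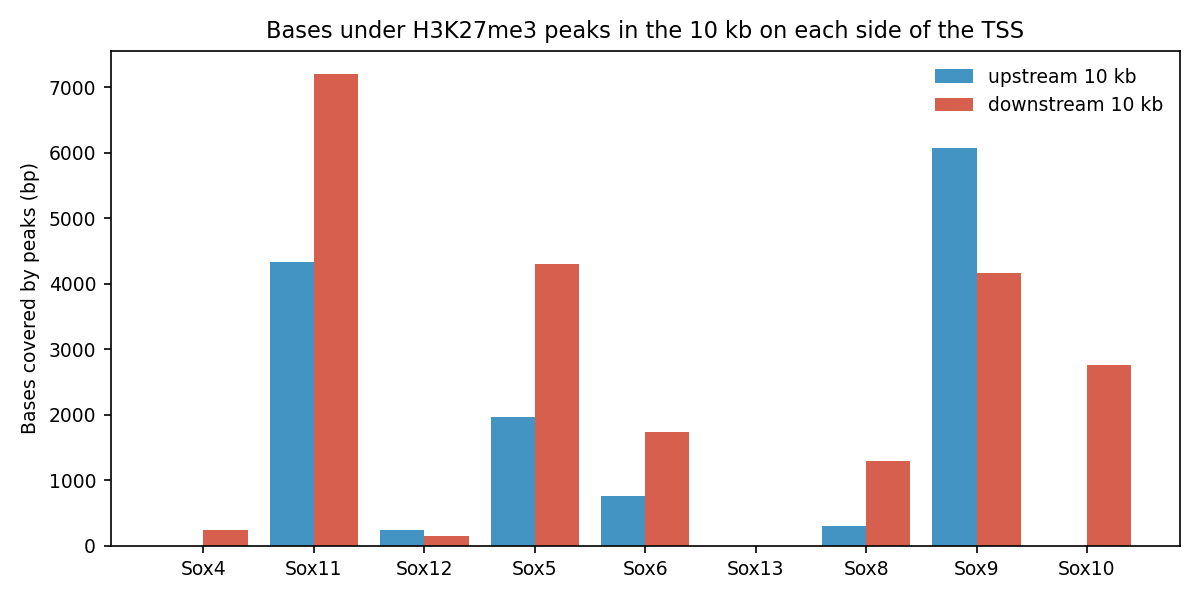
Bases (bp) under peaks of any gene in the 10 kb upstream (blue) and the 10 kb downstream (red) of the TSS of each factor. Sox11 (4331 and 7200 bp) and Sox9 (6077 and 4158 bp) are covered on both sides, Sox10 (2756 bp) and Sox4 (239 bp) only downstream, and Sox13 on neither.

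Of the peaks of the 9 factors 42.3% were intronic and 55.4% intergenic, against 21.8% and 74.7% in the whole list. Of the 200 intronic peaks 185 belong to Sox6, which has a long gene, so the 473 peaks are not independent. A repeat family was named at the centre of 19.2% of them, against 31.1% of all peaks. Peaks of 1000 bp or more made up 7.19% (34 peaks) against 10.9%, and 12 of the 34 had a score per kb above the median of 30.0. These shares describe the list and were not tested.

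The 9 factors were then set beside the rest of the Sox family. Of 11 other Sox genes 5 are named by peaks, and all 5 had a promoter peak (45.5% of the 11, against 17.2% of background genes). Sox2, a pluripotency and neural progenitor factor also found in immature Schwann cells, had 1929.9 over 36268 bp. Sox14, which acts in interneurons, had 1135.3 over 16175 bp, and Sox17, an endoderm and endothelial factor, had 970.5 over 16583 bp. Sox7, another endothelial factor, had 302.2 over 6302 bp, and Sox18, outside the naming rule, had 147.5. Of the 9 factors Sox11 alone scored above Sox7 or Sox18. No peak names the other 6, Sry and Sox1 among them, and they cannot be told from genes missing in the authors' annotation.

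Genes around Sox10 in the Schwann lineage were also read from a list of 30 upstream factors, partners and targets. Of these, 13 had a promoter peak (43.3%, against 17.2% of background genes), and in 11 it belonged to the top 25% of scores (background 12.6%). The highest were Pax3 (1471.1) and Tfap2a (634.3), neural crest factors upstream of Sox10, the POU partner gene Pou3f2 (573.4) and Dhh (436.7), a Schwann cell signal to the perineurium. The authors' list places the Dhh peak at chrX:115082017-115091000 (rn5), a placement that was not checked here. Egr2, the factor that Sox10 induces and works with in myelination, had a promoter peak of 2215 bp and score 72.6 and 6364 bp covered within 10 kb on each side (percentile 86.5). Of the 30, peaks name 19, and Foxd3 and Zeb2 are among those not named. Genes not named counted as without a promoter peak, and they cannot be told from genes missing in the authors' annotation.

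Of 14 cartilage genes that Sox9, Sox5 and Sox6 are known to activate, 8 had a promoter peak (57.1%, against 17.2% of background genes), and 7 had a score there in the top 25% (background 12.6%). Col2a1, the collagen of cartilage, had 325.9 over 7683 bp, Comp 238.7, Col9a2 149.1 and Acan, the core proteoglycan, 125.6. Col9a1 had none, and its nearest peak scored 3.30 at 7067 bp. No peak names Col9a3, which cannot be told from a gene missing in the authors' annotation.

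Marker lists placed these values in the tissue. Promoter peaks were found at 3 of 7 Schwann cell markers, 4 of 8 fibroblast and perineurial, 3 of 8 endothelial and mural, 2 of 8 leukocyte and 8 of 8 neuron markers. The same share was 17.2% of background genes, and 42.5% of rebuilt start sites had a peak of any gene within 1000 bp. Promoter peaks in the top 25% of scores were found at 8 of 8 neuron markers, against 12.6% of background genes. The same count was 2 of 7 Schwann cell markers and 2 of 8 fibroblast and perineurial markers. It was 2 of 8 endothelial and mural and 1 of 8 leukocyte markers. Neuronal nuclei lie outside the nerve, and why the neuron markers were marked was not tested. The part of each cell type in the peaks of the Sox genes was not tested.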

How the data were processed

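H3K27me3 was measured by micrococcal nuclease chromatin immunoprecipitation and sequencing in sham sciatic nerve (2 libraries, with 2 input libraries). Per the submitters' processing notes, CASAVA 1.8.2, Bowtie and HOMER were used, and per the file headers the authors annotated a combined peak list against rn5 with HOMER. Versions of Bowtie and HOMER, peak settings, use of the input and the way of combining are details not given in sources used here. The score of each peak was deposited by the authors without a stated scale. The file also gives width, coordinates and signed distance to the TSS in bp. The depth of each library is not given by the file.

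With Python 3.11.15, pandas 2.3.3 and scipy 1.17.1, a promoter peak was a peak whose centre lay within 1000 bp plus its width divided by 2 of the TSS. The TSS was rebuilt from peak centres and signed distances where all peaks of a transcript left a single position (9412 of 10900 transcripts). A transcript with a single peak fits both strands and was left out. Shares and percentiles over rebuilt start sites thus rest on transcripts with more than a single peak. Peaks of any gene were summed in windows around each rebuilt TSS. The code was tested on simulated data. Background genes were the protein-coding genes of RefSeq's GRCr8 table plus the listed genes, and 99.3% of the named genes matched it by identifier or symbol. Counting intervals are exact Poisson intervals. No test was run, since no value per library exists. Alternatives changed the reach, score minimum, merging, gene assignment and window.

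Named were all 9 factors, the 4 highest promoter scores and up to 2 genes without a promoter peak of each comparison list, and Sox2 and Egr2. A gene that the rule also takes is not reported here. Marker lists are given by counts. The members and lists were chosen with earlier results of these data known.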

Additional observations from a re-analysis of the deposited data

How the results depend on the processing

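Of the 9 factors, the 7 with a promoter peak became 3 under the demand that a peak contain the TSS (Sox11, Sox5 and Sox6, against 6.15% of background genes) and 4 when its centre had to lie in the authors' promoter-TSS class (Sox5, Sox6, Sox8 and Sox9, against 8.27%). Sox10 is in neither set. The highest Sox11 score was 163.4 in a peak that contained the TSS, against 344.7 with a reach of 1000 bp. A reach of 5000 bp gave 8, now with Sox4 (background 27.7%). A score at or above the median of 4.54 gave 5 (14.7%) and so did the top 25% (12.6%), both without Sox10. Merging peaks within 5000 bp gave 7 (44.1% of rebuilt start sites), as did peaks of any gene (42.5%). By covered bases Sox10 ranked 4 of 9 within 10 kb on each side, also with peaks of the top 25% alone, 5 within 5 kb and 7 within 50 kb. Its highest promoter score was 4.13 and became 25.2 with a reach of 5000 bp, above Sox6 (12.8). No Sox10 peak contained the TSS. No paired analysis was possible because the deposited list holds no value per library, and no library could be left out. Small peaks limit what can be read: a score of 4.13 stands for about 20 steps of the score, and input values per peak were not used here.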
